A study of Homo sapiens with 4 samples.

Results

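The genes described here are 37 members of the hypoxia response and of glycolysis, with VEGFA among them, chosen by name from the 60651 genes of a stranded read count table. All 37 names were found once each, and 36 of them had enough reads to be tested among 15636 genes. CA9, with 27 reads over all libraries, was not tested. The cells were KP4, an established human pancreatic ductal adenocarcinoma line. Control cells and cells called E5 were each given vehicle (DMSO) or FOLFIRINOX for 96 h. In that drug mixture oxaliplatin, which crosslinks DNA, was at 5 µM, SN-38, the metabolite through which irinotecan acts, at 25 nM, and another agent that the labels spell 5-F at 10 µM. The title of the series calls the E5 cells resistant, and its design text speaks of 5 treatment cycles with either DMSO or FOLFIRINOX, so it is not settled here what the E5 vehicle cells had met before the assay. Each of the 4 groups is 1 GEO sample with 3 numbered columns, read as 3 libraries. Nothing in the labels says that these came from separate cultures, so the spread behind every test may be technical, and E5 is 1 population of cells.

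Cells sense oxygen through hypoxia-inducible factors (HIF). The alpha subunits HIF1A and EPAS1 (HIF-2 alpha) are hydroxylated by EGLN enzymes when oxygen is present and then broken down. When oxygen is low they persist, bind DNA at a short core motif and raise genes for blood vessel growth, glucose uptake, glycolysis, lactate export, mitophagy and collagen maturation. Their control is therefore mostly at the protein, which mRNA reads do not show. Many glycolytic genes also respond to MYC and to nutrient and stress signals, and pancreatic ductal tumours are known for poor blood supply and strong glycolysis.

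Gene reads ranged from 7359034 to 21775030 per library, and the 3 shallowest were library 1 of control vehicle, control FOLFIRINOX and E5 vehicle. Of the pancreatic ductal markers, KRT18 was at 161 to 671 and KRT8 at 30.0 to 259 CPM (reads of a gene scaled to a fixed total of gene reads per library) over all libraries, while KRT19 (0 to 4.51 CPM) and EPCAM (0.134 to 1.49 CPM) were low. Blood markers summed to at most 0.645 CPM, with CD3E at 0 reads. Endothelial markers summed to 6.70 to 7.15 CPM in E5 vehicle against 0.667 to 1.48 in control vehicle libraries, and fibroblast markers to 15.2 to 16.9 against 4.15 to 4.58, mostly from CDH5 and COL1A1. Under FOLFIRINOX the endothelial sums were 2 to 2.79 in E5 and 1.03 to 1.34 CPM in control libraries, and the fibroblast sums 8.84 to 10.6 and 3.23 to 3.62. Their part in the results was not tested.

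Glycolytic enzymes dominated the levels. On the authors' FPKM scale, which allows for gene length, GAPDH stood at 5573 ± 407 (SD, n = 3) in control vehicle cells and LDHA, ENO1, TPI1 and PKM followed at 1058, 1315, 1068 and 563. VEGFA was at 18.2 FPKM in the same cells and at 182 in E5 cells under FOLFIRINOX. At the other end, CA12, ALDOC and EGLN3 stayed below 1.6 FPKM in every group mean and CA9 below 0.3. The 37 genes took 1.41 to 1.59% of gene reads in control vehicle libraries, 1.28 to 1.42% in control FOLFIRINOX, 2.11 to 2.28% in E5 vehicle and 2.30 to 2.56% in E5 FOLFIRINOX libraries. Every E5 library lay above every control library, and GAPDH alone gave 0.57 to 1.18%.

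**Figure D1:**
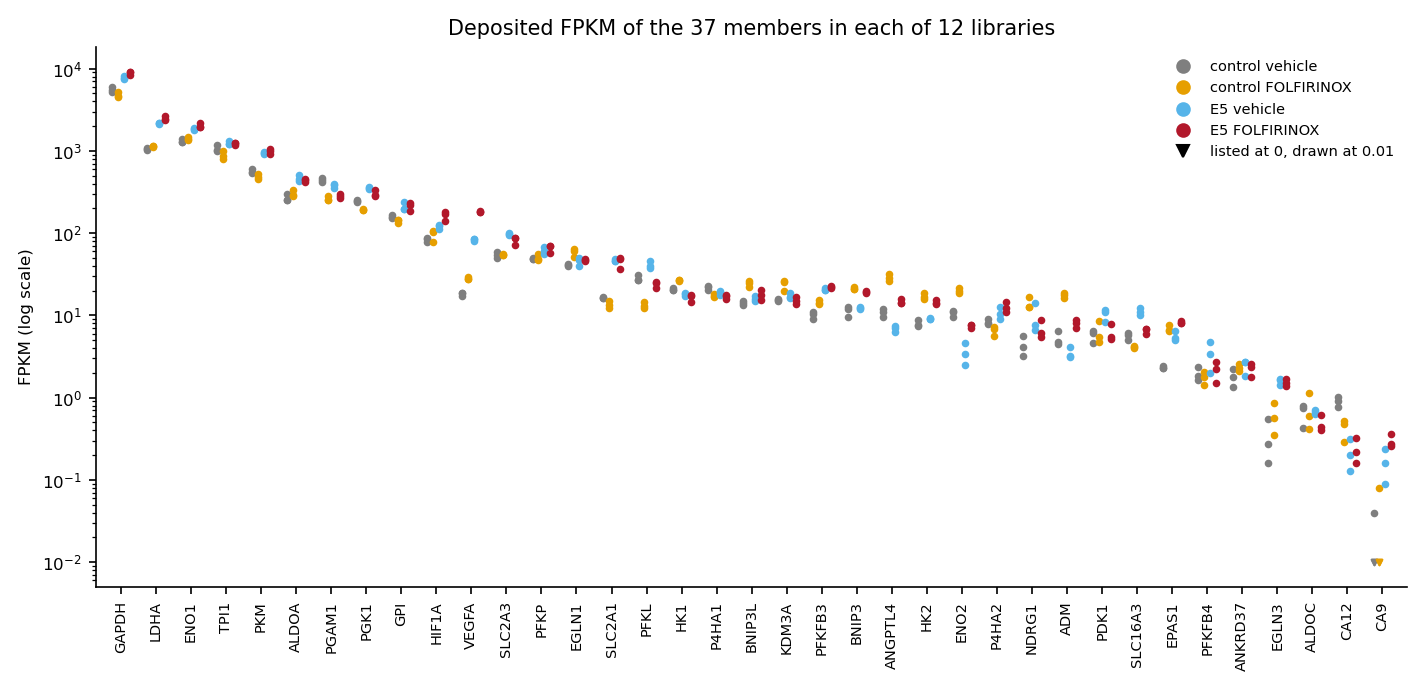
Deposited FPKM (log axis) of the 37 members in each of the 12 libraries, ordered by mean level and coloured by group; triangles mark libraries listed at 0. GAPDH leads in all groups, CA9 is lowest, and VEGFA runs from 18.2 (control vehicle mean) to 182 (E5 FOLFIRINOX mean).

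E5 cells held more RNA of most members than control cells. Under vehicle, 23 of the 36 tested members were higher and 7 lower in E5 cells by edgeR's quasi-likelihood test with Benjamini-Hochberg adjustment at 0.05, where 22.1% of all tested genes were higher and 22.2% lower. The members' median log2 fold change was 0.48, against -0.01 over all tested genes. Under FOLFIRINOX, 21 were higher and 9 lower, where 26.7% of all tested genes were higher and 27.6% lower, with a median of 0.59 against -0.01. The members were chosen with earlier results of these data known, so these counts only describe the list. In bulk RNA, a change in the share of cells of a kind and a change in RNA per cell cannot be told apart. The 20 members higher in both comparisons made up 20 of the 23 and 20 of the 21. How many of all tested genes were called alike in both comparisons was not counted, so this overlap has no background beside it. ADM, ANGPTL4, CA12, ENO2 and HK1 were lower in both. HK2 and NDRG1 were higher under vehicle and lower under FOLFIRINOX, and ALDOC, BNIP3 and EGLN1 passed in neither comparison. The HK2 call under FOLFIRINOX was lost under 19 of 23 alternatives, whereas both calls of NDRG1 held under all 23.

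**Figure D2:**
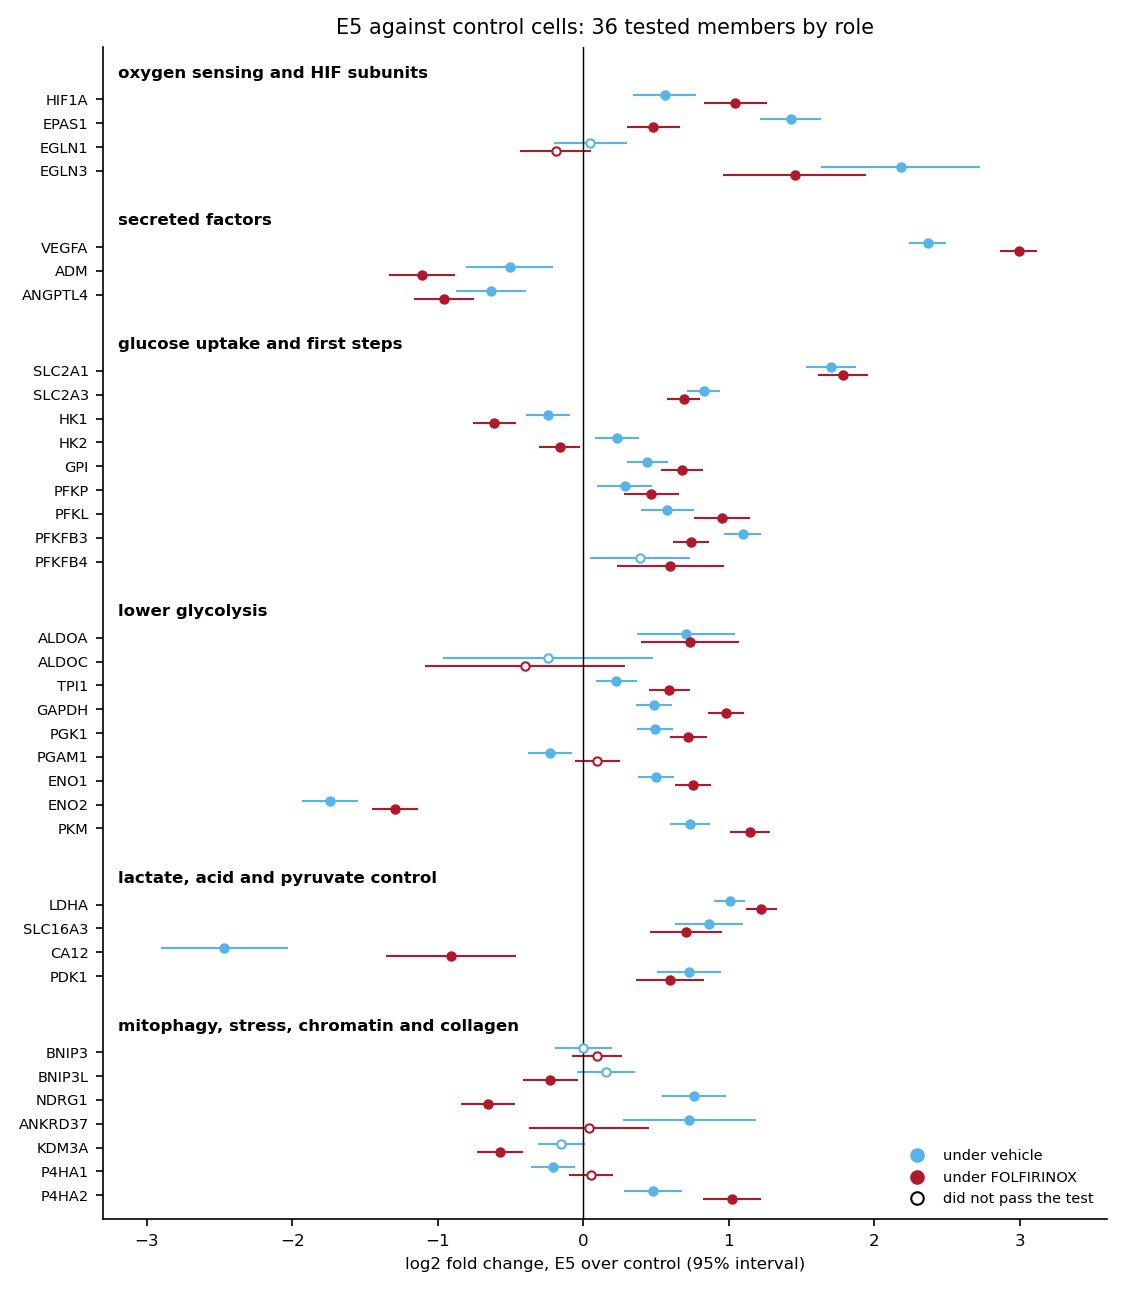
Log2 fold change of E5 over control cells with its 95% interval for the 36 tested members, grouped by role, under vehicle (blue) and FOLFIRINOX (red); open symbols did not pass the test. Most points lie right of 0, with VEGFA farthest right (2.37 and 2.99), while ADM, ANGPTL4, ENO2, CA12 and HK1 lie left of it in both comparisons.

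FOLFIRINOX moved the members both ways. In control cells 13 were higher and 17 lower after the drug, where 32.6% of all tested genes were higher and 32.7% lower, and the members' median was -0.18 against 0.00 over all genes. In E5 cells 9 were higher and 8 lower, where 25% and 27.3% of all tested genes were, and the median was -0.06 against 0.00. ADM, ANGPTL4, BNIP3, ENO2, EPAS1, HK2 and VEGFA rose in both kinds of cells. P4HA1, PDK1, PFKFB4, PFKL, PGAM1, PGK1, SLC16A3 and SLC2A3 fell in both, and no member was called higher in one and lower in the other. Some members had responses of opposite sign of which at most 1 was called, such as GAPDH at -0.37 in control and 0.13 in E5 cells. How many of all tested genes were called alike in both kinds of cells was not counted. The split in control cells depended on the scale: the authors' FPKM gave 13 higher and 10 lower, and scaling by total counts alone gave 13 and 13 there and 13 and 6 in E5 cells, with the median over all genes in control cells moved to 0.14. With log2(FPKM + 1) that median over all genes was 0.138.

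HIF binds a core motif that can be ACGTG, which reads CACGT on the other strand, or GCGTG. Each was searched on both strands in the 250 bases before each start site in RefSeq's promoter table (GRCh38.p14), which held 33 of the members and not BNIP3L, NDRG1, SLC2A3 or VEGFA. ACGTG occurred in the promoters of 19 of these 33 genes (57.6%), against 5935 of 27305 genes in the whole table (21.7%). GCGTG occurred in 18 of the 33 (54.5%), against 36.2%. Genes with several start sites have more chances to match: counted by promoter, ACGTG was in 22 of 55 (40.0%) against 18.5%. It was in 10 of the 18 members with a promoter entry that were higher in both E5 comparisons (55.6%), in 2 of 5 lower in both (40.0%) and in 7 of the 10 others (70.0%). These shares were not tested against each other. The members were picked by name as hypoxia and glycolysis genes, so a share above that of all genes may come with that choice. A match describes letters only and shows no binding. Windows of 29 bases around the match nearest the start are given for some of the members that hold the letters: first glycolytic enzymes and the lactate exporter that were higher in E5 cells, then ENO2, which was lower, and CA9, which had almost no reads. They show the match in its surroundings in members that stood differently in E5 cells. PFKL, ENO1, PKM and SLC2A1, also higher in E5 cells, had no ACGTG in their table entries. PFKFB3, TPI1, LDHA and SLC16A3 also have listed start sites without ACGTG before them. All windows shown are on the plus strand and lie before a start site listed for their gene. In order they span chr10:6202813-6202841, chr12:6868076-6868104, chr12:6535172-6535200, chrX:78104053-78104081, chr11:18394478-18394506, chr17:82228975-82229003, chr12:6914450-6914478 and chr9:35673898-35673926. Capitals mark ACGTG or CACGT. In the PFKFB3 and GAPDH windows the preceding base completes CACGTG, the E-box that MYC and other factors also bind.
PFKFB3: accctcctccccACGTGgaagggggctgg
TPI1: cgtgcgccgccgCACGTagccccagactc
GAPDH: ctctgcggggtcACGTGtcgcagaggagc
PGK1: aaacggaagccgCACGTctcactagtacc
LDHA: cgtgggttcccgCACGTccgccggccccc
SLC16A3: cgtgcgcgggggACGTGccgcgccagcga
ENO2: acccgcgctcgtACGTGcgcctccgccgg
CA9: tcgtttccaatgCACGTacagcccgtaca

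VEGFA (ENSG00000112715.25, chr6:43770184-43786487, GRCh38), the main growth factor for new blood vessels, showed the largest excess in E5 cells of the tested members. It stood at 52.5, 56.3 and 58.6 CPM in control vehicle and 74.7, 82.7 and 78.8 CPM in control FOLFIRINOX libraries. In E5 cells it stood at 294, 284 and 288 CPM under vehicle and 611, 638 and 638 CPM under FOLFIRINOX. The 4 groups did not overlap and rose in that order. E5 cells held 5.16-fold more under vehicle (log2 2.37 ± 0.06 SE, adjusted p = 6e-15) and 7.96-fold more under FOLFIRINOX (2.99 ± 0.06, adjusted p = 1e-15). The drug raised it 1.41-fold in control cells (0.50 ± 0.06, adjusted p = 1.6e-06) and 2.18-fold in E5 cells (1.12 ± 0.06, adjusted p = 1.8e-10). The response was larger in E5 cells by 0.63 ± 0.08 on the log2 scale (adjusted p = 4.2e-05). Each SE here is approximate, taken from the F statistic.

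ADM and ANGPTL4, the other secreted factors, went the other way between the cells. ADM codes for adrenomedullin, a peptide that widens vessels, and stood at 7.12, 8.59 and 10.7 CPM in control libraries with vehicle and 27.4, 29.7 and 28.3 with the drug, and at 6.70, 6.41 and 5.96 in E5 libraries with vehicle and 12.1, 13.1 and 14.6 with the drug. It was highest in drugged control cells and lowest in E5 vehicle cells, with no overlap. FOLFIRINOX raised it by 1.67 ± 0.11 in control cells (adjusted p = 1.9e-09) and by 1.07 ± 0.13 in E5 cells (adjusted p = 5e-06), a difference of -0.60 ± 0.18 (adjusted p = 0.021). E5 cells held less under FOLFIRINOX (-1.11 ± 0.11, adjusted p = 1.8e-07) and under vehicle (-0.51 ± 0.14, adjusted p = 0.0073). Without control vehicle library 3 the vehicle call was lost (-0.35), and the difference was lost without control vehicle library 2, E5 vehicle library 2 or E5 FOLFIRINOX library 1 (-0.56, -0.59 and -0.53). The difference was also lost on the FPKM scale with either pseudocount and without the 3 shallowest libraries. ANGPTL4, an inhibitor of lipoprotein lipase, averaged 22.7 ± 2.5, 53.9 ± 5.1, 14.7 ± 0.91 and 27.7 ± 3.1 CPM (SD, n = 3) over control vehicle, control FOLFIRINOX, E5 vehicle and E5 FOLFIRINOX. It rose with the drug in control (1.24 ± 0.10, adjusted p = 1.3e-08) and E5 cells (0.91 ± 0.11, adjusted p = 3.6e-06) and was lower in E5 cells by 0.63 and 0.96 on the log2 scale, under vehicle and drug.

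**Figure D3:**
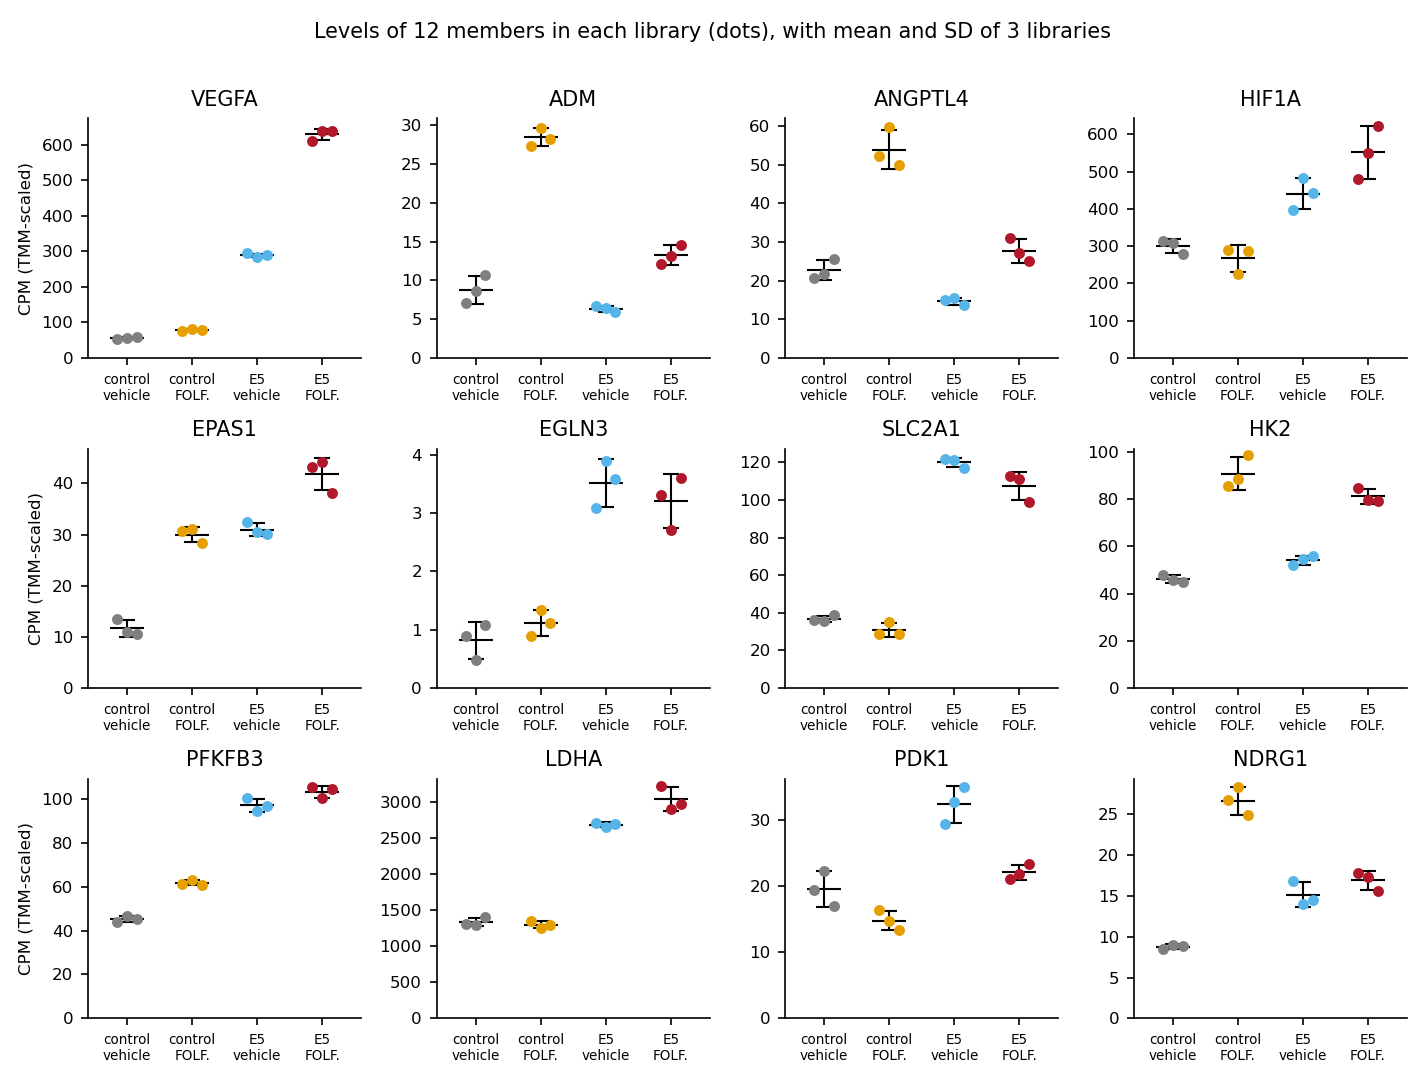
TMM-scaled CPM (linear axis from 0) of 12 members in each library, with the mean and SD of the 3 libraries of each group. VEGFA climbs from 55.8 to 629 CPM over the 4 groups, ADM, ANGPTL4 and NDRG1 peak in control FOLFIRINOX cells, and SLC2A1, LDHA and EGLN3 separate E5 from control cells at either treatment.

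Of the HIF subunits, both mRNAs were higher in E5 cells. HIF1A stood at 314, 309 and 278 CPM in control libraries with vehicle and 290, 226 and 288 with the drug, and at 397, 483 and 444 in E5 libraries with vehicle and 481, 550 and 623 with the drug. The control groups overlapped each other, as did the E5 groups, and no control library reached an E5 library. HIF1A was 1.47-fold higher in E5 cells under vehicle (0.56 ± 0.10, adjusted p = 0.00026) and 2.06-fold under FOLFIRINOX (1.04 ± 0.10, adjusted p = 2.2e-07). Its drug response was -0.17 ± 0.10 in control cells (adjusted p = 0.17) and 0.32 ± 0.10 in E5 cells (adjusted p = 0.014), a difference of 0.49 ± 0.14 (adjusted p = 0.02). The E5 response no longer passed without E5 vehicle library 1 (0.25) or E5 FOLFIRINOX library 3 (0.23), nor the difference without control vehicle library 1 (0.46). Neither passed without the 3 shallowest libraries, and the difference was also lost on the FPKM scale with either pseudocount. On that scale the control means of HIF1A rose with the drug, from 83.4 to 95.8 FPKM.

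EPAS1, the alpha subunit of HIF-2, was the member of this group that the drug moved most. It stood at 13.6, 11.03 and 10.5 CPM in control libraries with vehicle and 30.6, 31.1 and 28.3 with the drug, and at 32.4, 30.4 and 30.0 in E5 libraries with vehicle and 43.1, 44.2 and 38.2 with the drug. Drugged control cells and E5 vehicle cells thus overlapped. The drug raised it by 1.38 ± 0.10 in control cells (adjusted p = 2.7e-09) and by 0.44 ± 0.09 in E5 cells (adjusted p = 0.00048), a difference of -0.94 ± 0.13 (adjusted p = 7.4e-05). It was higher in E5 cells by 1.43 ± 0.10 under vehicle (adjusted p = 2.6e-09) and by 0.48 ± 0.09 under FOLFIRINOX (adjusted p = 0.00015), the latter not on the FPKM scale (0.21 with a pseudocount of 1).

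EGLN3, a prolyl hydroxylase that marks HIF alpha and is itself a HIF target, had few reads but did not overlap between the cells. Its libraries held 0.89, 0.477 and 1.09 CPM in control vehicle, 0.90, 1.34 and 1.11 in control FOLFIRINOX, 3.08, 3.90 and 3.58 in E5 vehicle and 3.31, 2.71 and 3.605 in E5 FOLFIRINOX. It was higher in E5 cells by 2.18 ± 0.26 (adjusted p = 2.4e-06) and 1.45 ± 0.23 (adjusted p = 5.1e-05) under vehicle and drug, and neither drug response passed, at 0.57 (adjusted p = 0.11) and -0.16 (adjusted p = 0.53), though the control one did without control vehicle library 3 (0.94). EGLN1, the main hydroxylase of HIF alpha, averaged 11.8, 12.1, 12.2 and 10.7 CPM and passed in no comparison with all libraries. Without control FOLFIRINOX library 3 it was lower in E5 cells under the drug (-0.30). Its FPKM per CPM was 4.12, above 97.5% of tested genes, and a gene model on the same strand overlaps it, so its counts may miss reads. The deposited FPKM of EGLN1 were 40.9, 58.3, 45.7 and 47.6, and on that scale its response in control cells (0.50), its E5 value under FOLFIRINOX (-0.28) and the difference of responses (-0.43) passed, with a pseudocount of 1.

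Both glucose carriers among the members, SLC2A1 and SLC2A3, were higher in E5 cells at each treatment. SLC2A1 (GLUT1), the broadly expressed glucose carrier, stood at 36.4, 35.7 and 38.6 CPM in control libraries with vehicle and 28.8, 35.2 and 28.9 with the drug, and at 122, 121 and 117 in E5 libraries with vehicle and 112, 111 and 98.9 with the drug. The lowest E5 library was above all control libraries. It was 3.25-fold higher in E5 cells under vehicle (1.70 ± 0.08, adjusted p = 2.1e-11) and 3.45-fold under FOLFIRINOX (1.78 ± 0.08, adjusted p = 1.3e-11). The drug response was -0.24 ± 0.09 in control (adjusted p = 0.02) and -0.16 ± 0.08 in E5 cells (adjusted p = 0.094), with a difference of 0.08 (95% interval -0.16 to 0.33). The control response no longer passed without control vehicle library 3 (-0.21) or control FOLFIRINOX library 1 (-0.20) or 3 (-0.18). SLC2A3, a carrier of high affinity, averaged 178, 151, 316 and 244 CPM, 1.78-fold and 1.61-fold higher in E5 cells (adjusted p = 9.2e-10 and 1e-08). It fell by 0.23 in control and by 0.37 in E5 cells with the drug, the former turning to 0.02 on the FPKM scale.

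Hexokinases trap glucose in the cell. HK2, the inducible form, stood at 48.0, 45.9 and 44.8 CPM in control libraries with vehicle and 85.4, 88.5 and 98.7 with the drug, and at 52.0, 54.6 and 55.8 in E5 libraries with vehicle and 84.9, 79.6 and 79.4 with the drug. All drugged libraries were above all vehicle libraries. The response was 0.98 ± 0.07 in control (adjusted p = 2.8e-09) and 0.59 ± 0.07 in E5 cells (adjusted p = 2.7e-06), smaller in E5 cells by -0.40 ± 0.10 (adjusted p = 0.0073). Between the cells HK2 differed by 0.23 ± 0.07 under vehicle (adjusted p = 0.014) and -0.16 ± 0.07 under FOLFIRINOX (adjusted p = 0.049). The first was lost without E5 vehicle library 3 (0.21), and the second without any 1 library other than control FOLFIRINOX library 1 or E5 FOLFIRINOX library 1, down to -0.09 without control FOLFIRINOX library 3. Both were lost on the FPKM scale. HK1, the constitutive form, averaged 85.0, 98.0, 71.8 and 64.1 CPM and was lower in E5 cells under FOLFIRINOX (-0.61 ± 0.07, adjusted p = 1.4e-06) and vehicle (-0.25 ± 0.07, adjusted p = 0.0098), the latter not without control vehicle library 3 (-0.20) or E5 vehicle library 2 (-0.22). The vehicle call of HK1 was also lost on the FPKM scale. Its drug responses, 0.20 and -0.16, differed by -0.37 ± 0.10 (adjusted p = 0.013), and the control one was lost without control vehicle library 1 or 2 or control FOLFIRINOX library 1 (0.17, 0.19 and 0.19).

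At the commitment step of glycolysis, PFKL and PFKP code for phosphofructokinase, and PFKFB3 and PFKFB4 make or remove the sugar phosphate that activates it. PFKL fell with the drug in both kinds of cells: 84.7, 83.7 and 98.4 CPM in control vehicle became 36.5, 40.5 and 35.2, and 146, 133 and 121 in E5 vehicle became 76.0, 75.1 and 66.5. It fell by 1.25 ± 0.09 in control (adjusted p = 4e-09) and by 0.87 ± 0.09 in E5 cells (adjusted p = 3.9e-07), and was higher in E5 cells by 0.58 and 0.95. The difference of its responses, 0.37 ± 0.13 (adjusted p = 0.037), was lost under 13 of 22 alternatives. PFKFB3, the form known for driving high glycolytic flux, stood at 43.9, 46.7 and 45.1 CPM in control libraries with vehicle and 61.5, 63.0 and 61.0 with the drug, and at 100.3, 94.4 and 96.8 in E5 libraries with vehicle and 106, 100.3 and 104 with the drug. Only the E5 groups overlapped. It was higher in E5 cells by 1.10 ± 0.06 under vehicle (adjusted p = 1.2e-10) and 0.74 ± 0.06 under FOLFIRINOX (adjusted p = 1.4e-08), rose in control cells (0.45 ± 0.06, adjusted p = 5.9e-06) and not by the test in E5 cells (0.09 ± 0.06, adjusted p = 0.2), a difference of -0.36 ± 0.08 (adjusted p = 0.0053).

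PFKFB4 had under 9 CPM in every library and averaged 5.73, 3.47, 7.58 and 5.38 CPM. It fell with the drug by 0.67 ± 0.18 in control (adjusted p = 0.0031) and by 0.46 ± 0.16 in E5 cells (adjusted p = 0.025), and was 0.39 ± 0.16 (adjusted p = 0.061) and 0.60 ± 0.17 (adjusted p = 0.0081) higher in E5 cells under vehicle and drug. The E5 response of PFKFB4 was lost without E5 vehicle library 1 (-0.37) or E5 FOLFIRINOX library 3 (-0.32), and the E5 difference under drug without control FOLFIRINOX library 3 (0.46). Under vehicle it did pass without control FOLFIRINOX library 2 or 3 or E5 FOLFIRINOX library 3 (0.39, 0.40 and 0.40). On the FPKM scale, with either pseudocount, both drug responses of PFKFB4 and its E5 difference under drug were lost. The E5 response was also lost with total counts, with DESeq2 and without the 3 shallowest libraries. GPI and PFKP were 0.28 to 0.68 higher in E5 cells. The vehicle value of PFKP (0.28) was lost without control vehicle library 1 or 2 or E5 vehicle library 1 (0.26, 0.25 and 0.20).

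The later steps of glycolysis, from aldolase to pyruvate kinase, was higher in E5 cells in 6 of 9 members at each treatment, where 22.1% and 26.7% of all tested genes were. Lower were 2 of the 9 under vehicle and 1 under FOLFIRINOX. GAPDH stood at 7235, 6809 and 7807 CPM in control libraries with vehicle and 5557, 5976 and 5428 with the drug, and at 10800, 10040 and 9728 in E5 libraries with vehicle and 11650, 11310 and 10540 with the drug. It was higher in E5 cells by 0.48 ± 0.06 under vehicle (adjusted p = 3.3e-06) and 0.98 ± 0.06 under FOLFIRINOX (adjusted p = 4.3e-10). This gene is often used as a stable reference, and here its drugged groups differed 1.98-fold. PKM, which makes pyruvate, followed at 0.73 ± 0.07 (adjusted p = 7e-08) and 1.15 ± 0.07 (adjusted p = 2.1e-10), from means of 1352 and 1016 CPM in control cells and 2246 and 2252 CPM in E5 cells, each under vehicle and then drug. ENO1 and PGK1 were 0.49 to 0.75 higher, and TPI1 0.23 and 0.59, the first of these lost without control vehicle library 2 (0.18). The vehicle call of TPI1 was also lost on the FPKM scale and without the 3 shallowest libraries. In control cells the drug lowered TPI1, PGAM1, PGK1, PKM, GAPDH and ENO1 by 0.25 to 0.66, ENO1 not on the FPKM scale (0.09). In E5 cells PGK1 fell by 0.32 and PGAM1 by 0.34.

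ENO2, the enolase typical of neurons, was lower in E5 cells, where ENO1 was higher. It stood at 24.7, 23.8 and 26.6 CPM in control libraries with vehicle and 40.8, 45.0 and 42.9 with the drug, and at 7.10, 7.79 and 7.40 in E5 libraries with vehicle and 17.5, 17.4 and 17.6 with the drug, with no overlap of groups. It was 3.34-fold lower in E5 cells under vehicle (-1.74 ± 0.09, adjusted p = 5.7e-11) and 2.46-fold lower under FOLFIRINOX (-1.30 ± 0.08, adjusted p = 2.3e-10). The drug raised it in control (0.78 ± 0.07, adjusted p = 7.2e-08) and in E5 cells (1.22 ± 0.09, adjusted p = 2e-08). SLC2A3, GAPDH and TPI1, also on chromosome 12, were higher in E5 cells.

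Counts are uncertain for ALDOA and PGAM1. ALDOA had 16.3 FPKM per CPM, above 99.1% of tested genes, and overlaps another coding model on its strand; PGAM1 had 5.95, above 98.1%, and has 13 named pseudogenes that held reads equal to 4.5% of its own. On counts ALDOA was 0.70 and 0.74 higher in E5 cells, and its FPKM means were 269, 302, 465 and 440. PGAM1 was 0.23 lower in E5 cells under vehicle, lost without control vehicle library 3 (-0.19) or E5 vehicle library 1 (-0.21), and its FPKM means were 441, 261, 376 and 282. ALDOC stayed under 1.2 CPM in all libraries.

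Around lactate, E5 cells held more of the enzyme and the exporter. LDHA, which turns pyruvate into lactate, stood at 1313, 1297 and 1397 CPM in control libraries with vehicle and 1342, 1256 and 1296 with the drug, and at 2710, 2644 and 2688 in E5 libraries with vehicle and 3219, 2901 and 2975 with the drug. The control groups overlapped, and the lowest E5 library was far above the highest control library. LDHA was 2.01-fold higher in E5 cells under vehicle (1.005 ± 0.05, adjusted p = 4.1e-11) and 2.34-fold under FOLFIRINOX (1.22 ± 0.05, adjusted p = 3.7e-12). The drug response was -0.04 ± 0.05 in control (adjusted p = 0.49) and 0.18 ± 0.05 in E5 cells (adjusted p = 0.007), a difference of 0.22 ± 0.07 (adjusted p = 0.033). The difference was lost without control vehicle library 3 (0.19), E5 vehicle library 2 or 3 (0.21 and 0.23) or E5 FOLFIRINOX library 1 (0.18). SLC16A3, the lactate exporter of glycolytic cells, was 1.82-fold and 1.63-fold higher in E5 cells and fell with the drug in both, from 16.7 ± 2.45 to 10.6 ± 0.97 CPM in control and from 30.4 ± 3.2 to 17.5 ± 0.71 CPM in E5 cells (SD, n = 3).

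PDK1, the kinase that keeps pyruvate out of mitochondria by blocking pyruvate dehydrogenase, stood at 19.4, 22.3 and 17.0 CPM in control libraries with vehicle and 16.3, 14.7 and 13.3 with the drug, and at 29.5, 32.7 and 35.0 in E5 libraries with vehicle and 21.0, 21.9 and 23.4 with the drug. It was higher in E5 cells by 0.73 ± 0.10 (adjusted p = 2.2e-05) and 0.60 ± 0.11 (adjusted p = 0.00019), although control vehicle and E5 FOLFIRINOX libraries overlapped. It fell with the drug by 0.43 ± 0.11 in control (adjusted p = 0.0028) and by 0.56 ± 0.10 in E5 cells (adjusted p = 0.00023). On the FPKM scale the control response (0.08) and the E5 difference under FOLFIRINOX (0.00) were gone.

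Both carbonic anhydrases of the cell surface, which handle the acid that glycolysis makes, were scarce. CA9, often used as a hypoxia marker, had 1 read in control libraries with vehicle and 1 with the drug, and at 9 in E5 libraries with vehicle and 16 with the drug. Scaled for depth the E5 to control ratio was 12.1 under vehicle (95% counting interval 1.68 to 533) and 15.0 under FOLFIRINOX (2.33 to 629), which cover counting error only. CA12 stood at 3.67, 4.01 and 4.12 CPM in control libraries with vehicle and 1.42, 1.74 and 1.78 with the drug, and at 0.67, 0.754 and 0.681 in E5 libraries with vehicle and 0.93, 0.783 and 0.966 with the drug. It was 5.53-fold lower in E5 cells under vehicle (-2.47 ± 0.21, adjusted p = 3.1e-08) and fell in control cells with the drug (-1.23 ± 0.16, adjusted p = 4.1e-06). In E5 cells the response was 0.33 ± 0.27 (adjusted p = 0.44), a difference of 1.56 ± 0.32 (adjusted p = 0.0019). Under FOLFIRINOX the E5 value was -0.91 ± 0.21 (adjusted p = 0.0017), not called on the FPKM scale.

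Among stress genes, NDRG1, known as a hypoxia and stress response gene, changed sides between the treatments. It stood at 8.45, 9.02 and 8.81 CPM in control libraries with vehicle and 26.8, 28.3 and 24.9 with the drug, and at 16.9, 14.0 and 14.5 in E5 libraries with vehicle and 17.78, 17.3 and 15.6 with the drug. The E5 groups overlapped each other and lay between the untreated and the drugged control libraries. The drug raised it by 1.60 ± 0.10 in control cells (adjusted p = 4.2e-10) and by a value of 0.18 ± 0.10 in E5 cells that did not pass (adjusted p = 0.13), a difference of -1.42 ± 0.14 (adjusted p = 2.1e-06). E5 cells were 0.76 ± 0.10 higher under vehicle (adjusted p = 1.3e-05) and 0.66 lower under FOLFIRINOX (-0.66 ± 0.09, adjusted p = 8.1e-06). On the FPKM scale the E5 response was negative (9.41 to 6.82 FPKM), also without a call.

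BNIP3 and BNIP3L are receptors for mitophagy. BNIP3 went from 19.6 ± 1.4 to 31.1 ± 2.3 CPM in control and from 19.6 ± 0.80 to 33.1 ± 2.3 CPM in E5 cells, rises of 0.66 and 0.75, and was level between the cells under vehicle (0.00, 95% interval -0.19 to 0.19). BNIP3L rose in control cells by 0.58, and in E5 cells its response of 0.20 did not pass (adjusted p = 0.085). It was 0.23 lower in E5 cells under FOLFIRINOX (adjusted p = 0.043), where the groups overlapped and where leaving out any 1 library but control FOLFIRINOX library 2, E5 vehicle library 1 or E5 FOLFIRINOX library 3 ended the call, down to -0.12 without control FOLFIRINOX library 3. KDM3A, a histone demethylase, rose in control cells by 0.37 and was lower in E5 cells under FOLFIRINOX by 0.57. P4HA2, a collagen prolyl hydroxylase subunit, was higher in E5 cells by 0.48 ± 0.09 and 1.02 ± 0.09 (adjusted p = 0.00049 and 1.1e-07), with means of 23.3, 16.3, 32.4 and 33.6 CPM, whereas P4HA1 was 0.21 lower and 0.05 higher and did not pass under FOLFIRINOX. On the FPKM scale the vehicle calls of P4HA2 and P4HA1 were lost. The vehicle call of P4HA1 was lost without control vehicle library 1 or 2 or E5 vehicle library 1 (-0.19, -0.20 and -0.16), and its fall in E5 cells (-0.22, adjusted p = 0.019) without E5 vehicle library 2 or 3 or E5 FOLFIRINOX library 2 (-0.20, -0.18 and -0.17). ANKRD37, at 1.2 to 2.5 CPM, was 0.73 higher in E5 cells under vehicle, lost without control vehicle library 2 (0.58), and its response in control cells (0.49, adjusted p = 0.05) was lost under 17 of 23 alternatives. Over all 23 it ranged from 0.20 to 0.64, and without control vehicle library 2 it was 0.34.

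The drug responses differed between control and E5 cells in 20 of the 36 members. The E5 response was the higher in 12, where 13.3% of all tested genes were, and the lower in 8, where 12.4% were. With log2(FPKM + 1) the counts were 4 and 8, with log2(FPKM + 0.1) 3 and 8, with the deposited rlog values 8 and 9, with total counts 8 and 8 and without a filter 12 and 5. Without the 3 shallowest libraries, a setting added after the data were seen, they were 5 and 4. The 12 included 6 of the 9 lower glycolysis genes: TPI1, GAPDH, PGAM1, ENO1, ENO2 and PKM differed by 0.26 to 0.50, and all but ENO2 had fallen in control cells. The call of ENO1 was lost under 13 of 22 alternatives and that of PGAM1 under 8, both without control vehicle library 3 (0.21 and 0.28) among them. Those of TPI1, PKM and ENO2 were lost under 2, 2 and 4 alternatives. On the FPKM scale, with a pseudocount of 1 or 0.1, the calls of TPI1, PKM, ENO2 and ENO1 were all lost. The 8 included EPAS1, ADM, HK2, PFKFB3, NDRG1 and KDM3A, which had risen in control cells by 0.37 to 1.67. The calls of EPAS1, VEGFA, HK2, GAPDH, NDRG1 and KDM3A held under all 22 alternatives that bear on this difference.

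**Figure D4:**
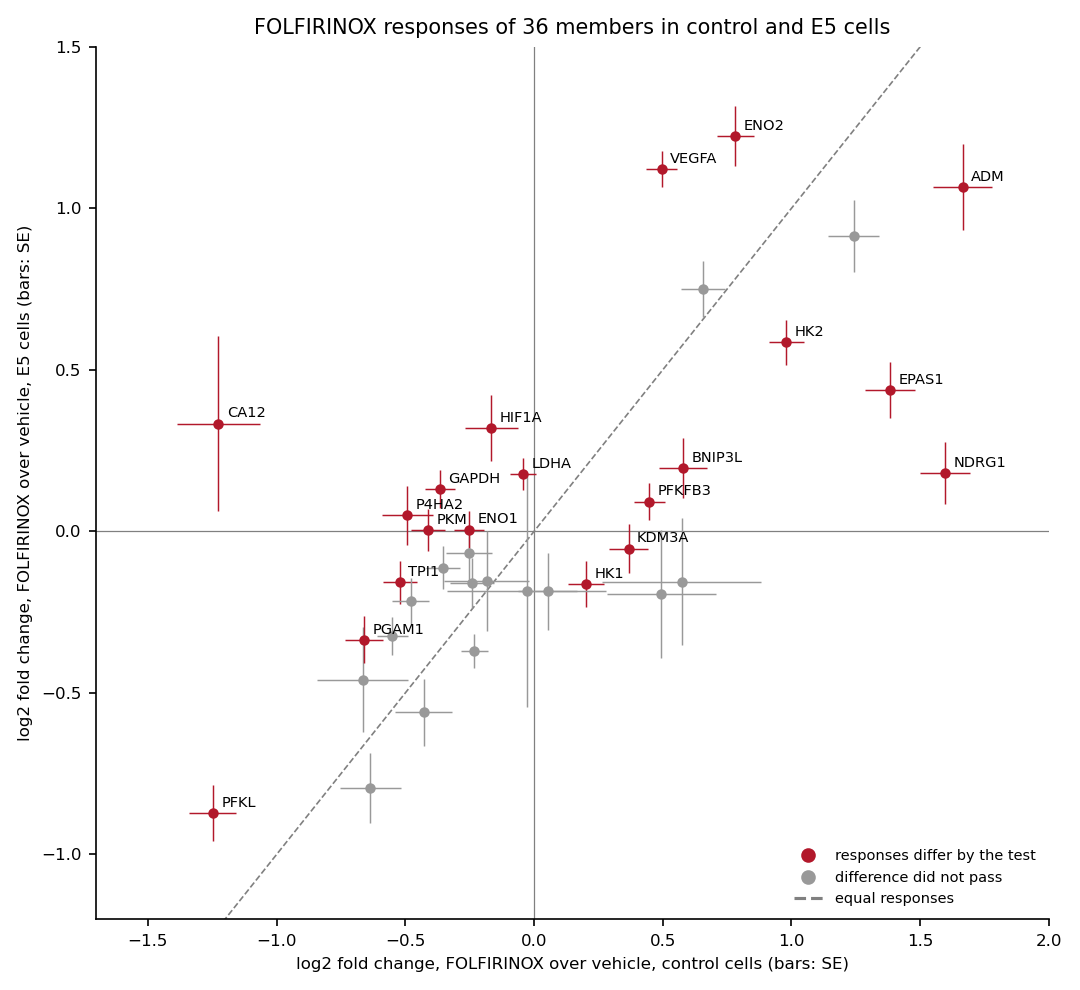
Log2 fold change with FOLFIRINOX in control cells (x axis) and E5 cells (y axis) for the 36 tested members, with SE bars and the line of equal responses; red points differ by the test. VEGFA and ENO2 lie above the line, EPAS1, ADM, HK2 and NDRG1 below it, and CA12 fell in control cells only by the test.

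HK1, P4HA1, PGAM1 and BNIP3 lie on the long arm of chromosome 10, and none was higher in E5 cells in either comparison. The same held for 8 tested members elsewhere: ADM, ANGPTL4, CA12, ENO2, ALDOC, EGLN1, BNIP3L and KDM3A. Over the 491 tested genes of that arm the median E5 difference was -0.44 under vehicle and -0.40 under FOLFIRINOX, with 59.3% and 58.7% of them lower. PFKFB3 and PFKP lie on the short arm, where the median over 151 tested genes was -0.13 and -0.10, and both were higher in E5 cells. This grouping was chosen after the values were seen, and its part in the members' values was not tested.

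Further genes of the pathway came from 5 lists, whose counts stand against the shares of all tested genes: 22.1% higher and 22.2% lower in E5 cells under vehicle, and 26.7% and 27.6% under FOLFIRINOX. These lists too were chosen with earlier results of these data known. Their counts are therefore no independent support for those of the members. Of 36 other hypoxia-induced genes, all tested, 19 (52.8%) were higher and 4 (11.1%) lower in E5 cells under vehicle, and 18 (50%) and 7 (19.4%) under FOLFIRINOX, with medians of 0.30 and 0.23. STC2, a secreted glycoprotein, was higher in E5 cells under FOLFIRINOX by 2.52 ± 0.09. Its means were 29.7 CPM in E5 and 5.06 CPM in control cells under vehicle, and 48.4 and 8.35 CPM under the drug. RAB20 was higher in E5 cells by 3.96 ± 0.32 under vehicle and 2.47 ± 0.28 under drug. It had few reads, with control means of 0.27 and 0.71 CPM against 4.05 and 3.23 CPM in E5 cells. LOX, which crosslinks collagen, was lower by 2.78 ± 0.23 and 4.38 ± 0.18, falling to 0.77 and 0.71 CPM. CXCR4, a chemokine receptor, was 3.88 ± 0.37 higher in E5 cells under vehicle and rose by 4.24 ± 0.34 in drugged control cells, from 0.177 CPM. After the drug the same list had 13 (36.1%) higher and 17 (47.2%) lower in control cells, where 32.6% and 32.7% of all tested genes were, and 12 (33.3%) and 15 (41.7%) in E5 cells, where 25% and 27.3% were. PLIN2, a lipid droplet coat protein, rose by 2.78 ± 0.12 and 1.96 ± 0.17.

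Of 13 other genes of the HIF machinery 12 were tested, and 2 (16.7%) were higher and 2 lower in E5 cells under vehicle and 4 (33.3%) and 4 under FOLFIRINOX, near the shares of all genes. CITED2, which competes with HIF for its coactivators, rose with the drug by 1.47 ± 0.09 in control cells (adjusted p = 2.5e-10) and by 0.47 ± 0.09 in E5 cells (adjusted p = 0.00037), a difference of -1.01 ± 0.12 (adjusted p = 2.3e-05). ARNT2, a partner of HIF alpha, was 0.69 and 0.68 higher in E5 cells. Of 32 other glycolysis and pyruvate genes 20 were tested, with 8 (40%) higher and 3 (15%) lower in E5 cells under vehicle and 8 (40%) and 5 (25%) under FOLFIRINOX. PDP1, the phosphatase that opposes PDK1, was 1.13 ± 0.07 and 1.96 ± 0.07 higher in E5 cells, at 617 and 604 CPM against 282 and 156 CPM. PDK1 and its opponent were thus both higher there. BSG, the chaperone of lactate carriers, was 0.86 ± 0.07 higher in E5 cells under vehicle. Under FOLFIRINOX its means were 476.5 CPM in E5 and 277.4 CPM in control cells. SLC16A7, a monocarboxylate carrier, had 120 reads in control vehicle and 0 in E5 vehicle libraries. The 95% counting interval of the control to E5 ratio started at 23.7, and a floor of 3 reads over the group in place of 0 gave 29.6. Under FOLFIRINOX SLC16A7 had 73 reads in control and 1 in E5 libraries, a ratio of 77.9 (95% counting interval 13.5 to 3120).

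Of 11 other glucose carriers 6 were tested, with 1 higher and 1 lower in E5 cells under vehicle and 2 higher and 3 lower under FOLFIRINOX, at medians of -0.12 and -0.18. SLC2A12 fell with the drug by 2.68 ± 0.07 in control and by 1.06 ± 0.06 in E5 cells, from 96.6 to 15.1 and from 109 to 52.5 CPM, a difference of 1.62 ± 0.09 (adjusted p = 7.5e-09). SLC2A10 had 134 reads in control vehicle and 3 in E5 vehicle libraries, a ratio of 33.1 (95% counting interval 11.1 to 162). Of 13 other VEGF and angiopoietin genes 7 were tested, with 3 (42.9%) higher and 2 (28.6%) lower in E5 cells under vehicle and 5 (71.4%) and 2 (28.6%) under FOLFIRINOX. NRP1, a coreceptor for VEGF, was 1.25 ± 0.07 higher under vehicle (adjusted p = 6.9e-11) and 2.08 ± 0.07 under FOLFIRINOX (adjusted p = 1.3e-13), at 402 and 444 CPM against 169 and 105 CPM. VEGFC, a lymphatic growth factor, fell with the drug by 0.52 ± 0.06 in control and by 0.27 ± 0.06 in E5 cells and was lower in E5 cells by 0.65 and 0.40 under vehicle and drug, and PGF was lower in E5 cells by 1.14 ± 0.42 and 1.26 ± 0.28. PGF had few reads, with means of 0.79 and 1.63 CPM in control and 0.34 and 0.69 CPM in E5 cells, under vehicle and drug.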

How the data were processed

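KP4 RNA was sequenced in 4 groups of 3 libraries. Deposited counts were stranded reads per gene, made with STAR 2.5.1b after Trimmomatic, per the submitters' processing notes, on GRCh38. FPKM values were deposited by the authors, as were regularised log2 (rlog) values; their programs are not given in the sources used here. Reads outside genes (unmapped, multimapping, without a feature and ambiguous) stayed out of library sizes. Counts were tested with edgeR 4.0.16 in R 4.3.3 by a quasi-likelihood F test (all 12 libraries, group means, TMM scaling, filterByExpr), with Benjamini-Hochberg adjustment over 15636 genes at 0.05. The biological coefficient of variation was 7.37%. The script was tested on simulated data. CPM are TMM-scaled, and levels of different members were set side by side in FPKM only (markers are in CPM, without allowance for length). SE was taken as the fold change over the root of F. Replicate numbers showed no steady pairing of the libraries: same-numbered deviations correlated at -0.343 to 0.264. With 3 libraries per group this cannot exclude pairing.

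The members and all gene lists were chosen with earlier results of these data known. Named with full values were the members past a log2 change of 1 with a call, VEGFA, CA9, HIF1A, EPAS1, SLC2A1, HK2, PFKFB3, PFKFB4, LDHA and PDK1, members whose drug responses differ, and at most 3 called genes per further list and comparison. Alternatives, 22 planned and 1 added after seeing the data, covered RLE factors, total counts, no filter, DESeq2 1.42.0, 2 groups at a time, a replicate block, pseudogene counts added, limma 3.58.1 on log2(FPKM + 1), log2(FPKM + 0.1) and rlog, and leaving out each library.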

Additional observations from a re-analysis of the deposited data

Results flagged for a closer look

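The response to FOLFIRINOX differed between control and E5 cells, by edgeR's test of the difference itself, in 20 members. The values below are the E5 response minus the control response on the log2 scale, and no explanation was tested. Positive differences were 1.56 for CA12, 0.63 for VEGFA, 0.54 for P4HA2, 0.50 for GAPDH, 0.49 for HIF1A, 0.44 for ENO2, 0.41 for PKM, 0.37 for PFKL, 0.36 for TPI1, 0.32 for PGAM1, 0.26 for ENO1 and 0.22 for LDHA. Negative differences were -1.42 for NDRG1, -0.94 for EPAS1, -0.60 for ADM, -0.42 for KDM3A, -0.40 for HK2, -0.38 for BNIP3L, -0.37 for HK1 and -0.36 for PFKFB3. The adjusted p of BNIP3L, PFKL, LDHA and ENO1 lay between 0.031 and 0.041, and each of these 4 calls was lost under 9 to 13 of 22 alternatives.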

How the results depend on the processing

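Of members called, 21 of 30 (E5 against control, vehicle), 24 of 30 (FOLFIRINOX), 20 of 30 (control response), 14 of 17 (E5 response) and 6 of 20 (difference) were called under every alternative. With log2(FPKM + 1) and log2(FPKM + 0.1) the control response had 10 members lower each, and the difference 4 and 3 higher. Medians over the members turned to 0.099 under both for the control response and to -0.225 and -0.259 for the difference. The medians over all tested genes moved as well, to 0.138 and 0.188 for the control response and to -0.096 and -0.12 for the difference. The members' medians thus stayed below those of all genes for the control response. The control response turned to 0.022 under both for SLC2A3, 0.035 and 0.036 for PFKP, 0.093 under both for ENO1 and 0.081 and 0.09 for PDK1. PDK1 under FOLFIRINOX turned to -0.002 with log2(FPKM + 1). Without a filter 5 members were lower in the difference. Without the 3 shallow libraries 5 were higher and 4 lower. The causes were not tested. Leaving out 1 library gave 20 to 24 higher and 4 to 7 lower (vehicle, the 4 without control vehicle library 3), 20 to 21 and 7 to 8 (FOLFIRINOX), 11 to 13 and 15 to 17 (control response), 9 to 11 and 7 to 10 (E5 response) and 8 to 14 and 6 to 8 (difference). With the replicate block the difference had 10 higher and 8 lower. Whether the libraries' numbers pair them was not settled. Low reads limit CA9, CA12, EGLN3, ALDOC and ANKRD37, and RAB20 and PGF among the further genes.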
